A study of Mus musculus with 4 samples.

Results

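The genes described here are 10 members of the interleukin-1 (IL-1) family and of the inflammasome: the cytokines Il1a, Il1b and Il18, the receptor antagonist Il1rn, the receptors Il1r1 and Il1r2, and the inflammasome genes Nlrp3, Pycard, Casp1 and Casp4. They were found as every probe set that the array's annotation pairs with exactly 1 of these symbols, which gave 15 of the 34945 probe sets with 1 symbol, and 10 of 18193 genes. A probe set is a group of short array probes whose combined brightness, the signal, stands for 1 transcript. The series measured aortas of mice with a smooth muscle cell specific knockout of Smad4 (Smad4-KO) and of wild-type littermates (WT), all 6 weeks old. Each Affymetrix array took 400 ng of RNA drawn from 3 to 5 vessels combined in a tube. There were 2 arrays for a genotype, labelled biological replicates 1 and 2. The labels do not name the Cre line or the deleted part of Smad4, and cells of the vessel wall other than smooth muscle keep the gene.

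IL-1 signalling is an early alarm of inflammation. IL-1α and IL-1β bind the receptor IL1R1, which signals through MYD88 to NF-κB, while the receptor antagonist IL1RN occupies the same receptor without signalling and the decoy receptor IL1R2 binds IL-1 without passing the signal on. IL-1β and IL-18 are made as inactive precursors. Inflammasomes cut them: a sensor such as NLRP3 assembles with the adaptor ASC, the product of Pycard, and activates caspase-1, while caspase-11, the product of mouse Casp4, responds to bacterial lipopolysaccharide inside the cell. In arteries these genes are best known from macrophages and other white blood cells, and IL1R1 is also carried by smooth muscle, endothelial cells and fibroblasts.

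The median signal was 111 on WT replicate 1, 132 on WT replicate 2, 133 on Smad4-KO replicate 1 and 137 on Smad4-KO replicate 2. The smooth muscle markers Acta2 (30692 to 57304) and Myh11 (5960 to 32861) were bright on all 4 arrays, as the labelled tissue would have them. For Smad4 itself, the brightest probe set gave 4394 and 3819 (WT) against 2676 and 3580 (Smad4-KO), and its log2 difference, -0.40 ± 0.32, missed the threshold (limma, adjusted p = 0.626). Values after ± are standard errors from limma unless marked SD. A labelling control, Dap, was read far more strongly at its 3' than at its 5' end on WT replicate 1 (ratio 10.02) and Smad4-KO replicate 2 (14.1). The ratio was lower on the other WT (2.96) and Smad4-KO array (3.62). Mouse β-actin split the arrays the same way, at 11.4 and 4.19 on WT replicates 1 and 2 and 2.83 and 12.8 on Smad4-KO replicates 1 and 2. So did mouse Gapdh, at 3.27, 1.44, 1.04 and 3.00 in that order. Xist, which marks female tissue, was at 15192 and 6223 on the arrays numbered 1 and at 90.0 and 135 on those numbered 2. Precision is limited throughout by the number of arrays.

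The question was whether IL-1 and inflammasome transcripts change in the aorta when smooth muscle loses Smad4. Il1b, Il1rn and Il18 rose in the Smad4-KO aortas. The measured differences of Il1r2, Pycard and Casp4 were also large, but did not pass the test, and those of Casp1, Il1r1 and Nlrp3 were smaller. Il1a was too dim on every array to be tested. In limma, 3 of the 9 were higher at an adjusted p under 0.05, against 4.92% of all 13645 genes in the same fit. When dim genes were kept in the test, 0 of the 10 passed in limma, as did 0 of all genes (2788 at an unadjusted p under 0.05). As lower, 0 passed in limma, against 1.39% of all genes. At an unadjusted p under 0.05, 8 of the 9 were higher and 0 lower, against 13.1% and 6.16% of all genes. Il1rn and Il1r2 had a WT mean below the cut for low signal (5.64 on the log2 scale) and entered the fit only through the Smad4-KO arrays, where they are high, so counts and medians over the 9 are a description. Of the 7 whose WT mean was above that cut, 2 rose, Il1b and Il18, against 518 of the 13064 such genes in the same fit. Both Smad4-KO arrays lay above both WT arrays for 9 of 9, against 25.9% of all genes tested. The median log2 difference of the 9 was 1.85, and that of all genes tested was -0.01.

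**Figure D1:**
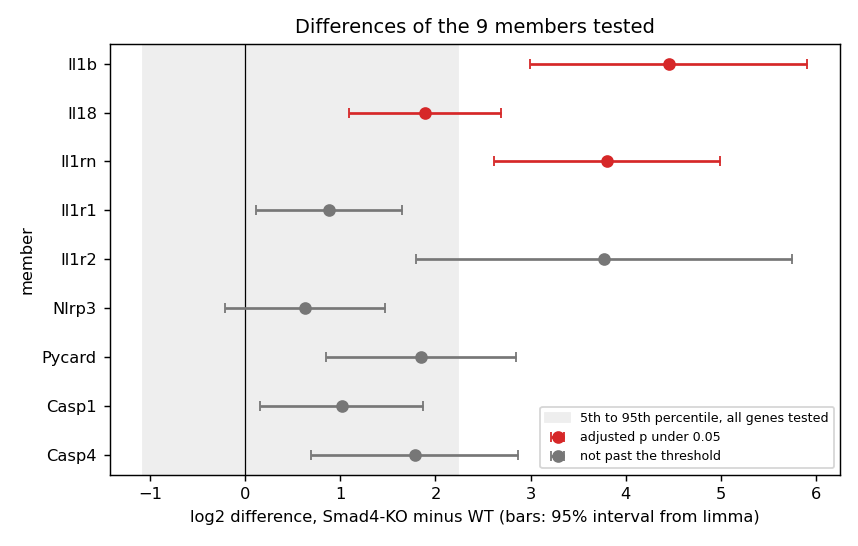
Log2 difference between Smad4-KO and WT (horizontal axis) for the 9 genes tested (vertical axis), with 2 arrays per genotype. Points are means, bars are 95% intervals from limma, red marks an adjusted p under 0.05, and the grey band runs from the 5th to the 95th percentile of all 13645 genes tested (-1.08 to 2.23). Il1b, Il1rn and Il1r2 lie beyond the band, and the bar of Nlrp3 crosses 0.

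Among the cytokines, Il1b, the gene of the inflammasome-cut alarm cytokine IL-1β, had signals of 41.8 and 122 (WT) and 1260 and 1942 (Smad4-KO). The genotypes lay far apart, and the 2 WT arrays differed more from each other (log2 mean 6.16 ± 1.09 SD, n = 2) than the 2 Smad4-KO arrays (10.6 ± 0.44 SD, n = 2). The log2 difference was 4.45 ± 0.58 (95% interval 3.00 to 5.91, limma, adjusted p = 0.0194), which lay at the 99.4th percentile of all differences. WT replicate 1 was below a signal of 64, where 35.2% to 39.2% of the probe sets of an array lie. Genes with a mean below 64 varied more between replicates (SD of the log2 difference between the arrays of a genotype 1.69 in WT and 1.84 in Smad4-KO) than brighter genes (0.64 and 0.84). The fold is therefore given with signals under 64 raised to 64, by which Il1b was at least 17.7-fold higher. This allows for dim signals and not for replicate spread. On the log2 scale that fold is 4.15, above the lower end of the interval, 3.00. The call of Il1b ended when WT replicate 2 was left out (log2 difference 5.23), as did every other call of the series. Over 16 alternatives its adjusted p lay between 0.000402 and 0.0847.

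Il18, the gene of an interferon-γ-inducing cytokine that is also cut by caspase-1, read 283 and 244 (WT) and 846 and 1117 (Smad4-KO). Unlike Il1b it was well measured in both genotypes, and replicates were close (log2 means 8.04 ± 0.15 SD and 9.92 ± 0.28 SD, n = 2 each). It rose 3.70-fold (log2 difference 1.89 ± 0.32, 95% interval 1.09 to 2.69, limma, adjusted p = 0.0335). Its call ended without WT replicate 1 (log2 difference 1.99) and without Smad4-KO replicate 2 (1.69). It also ended without WT replicate 2 (1.78), where every other call of the series ended too. Over 16 alternatives the adjusted p lay between 0.0161 and 0.190, while the difference stayed between 1.69 and 2.09. Quantile normalization also ended the call (1.70, adjusted p = 0.0508), as did averaging the probe sets of every gene (adjusted p = 0.0510). Il1a, the gene of IL-1α, which is active without cutting by an inflammasome, read 4.15 and 2.17 (WT) and 32.0 and 20.3 (Smad4-KO). The knockout arrays were the higher ones, but all 4 values lay below 64 and below the filter on low signal, so no fold is given and no test enters the count.

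**Figure D2:**
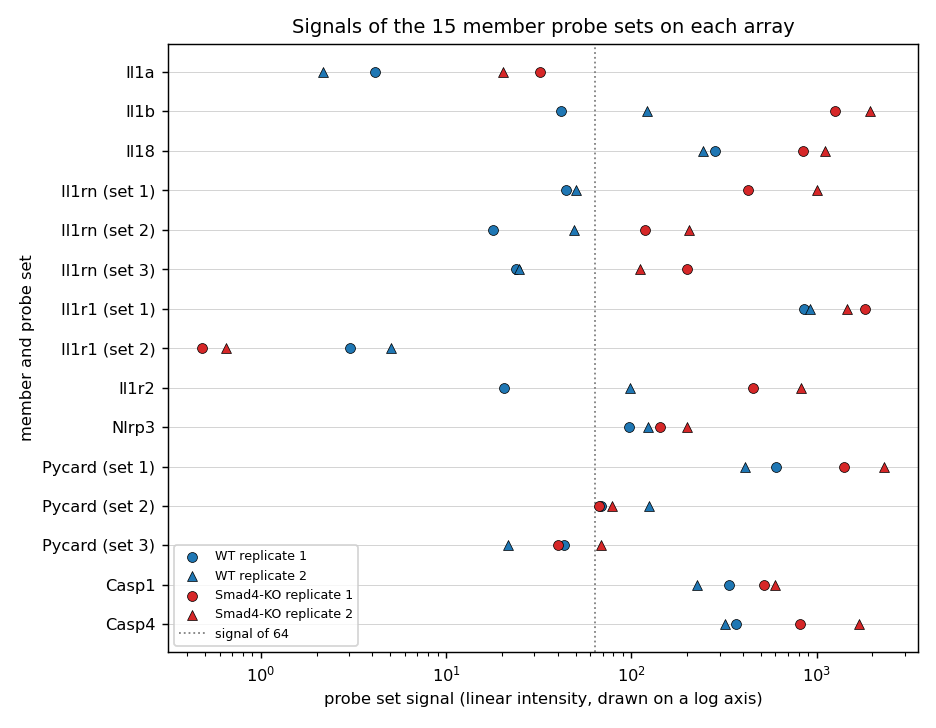
Signal of each of the 15 probe sets (vertical axis) on each array (horizontal axis, linear intensity on a log axis), with WT in blue, Smad4-KO in red, circles for replicate 1 and triangles for replicate 2. Signals should be compared along a line and not between lines. The 3 Il1rn probe sets separate the genotypes in the same direction, the brightest by the most. Of the Pycard probe sets only the brightest separates them, and Il1a and the dim Il1r1 probe set stay below the dotted line at 64.

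The inhibitors of the pathway were represented by the antagonist Il1rn and the decoy receptor Il1r2. The brightest Il1rn probe set read 44.3 and 50.1 (WT) and 429 and 1007 (Smad4-KO). Here the WT arrays were close (log2 mean 5.56 ± 0.13 SD, n = 2) and the Smad4-KO arrays less so (9.36 ± 0.87 SD, n = 2), without any overlap. Il1rn rose by 3.80 ± 0.47 on the log2 scale (95% interval 2.62 to 4.99, limma, adjusted p = 0.0180), or at least 10.3-fold when values below 64 are set to 64, with its place in the test owed to the Smad4-KO arrays. The second Il1rn probe set read 17.9 and 49.2 (WT) and 118 and 204 (Smad4-KO), and the third 24.0 and 24.8 (WT) and 201 and 111 (Smad4-KO). With values below 64 set to 64, the second was only 2.42-fold and the third 2.34-fold higher. All 3 thus gave the same direction, with log2 differences of 3.80, 2.39 and 2.62, but none passed in a fit of every probe set by itself (adjusted p = 0.0569, 0.176 and 0.0741 in that order). The call of Il1rn also ended without WT replicate 1 (log2 difference 3.71) and with no filter on low signal (limma, adjusted p = 0.0817). It ended as well without WT replicate 2 (3.89), where every other call of the series ended too. The lowest adjusted p of its 15 alternatives was 0.000765 in limma.

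Il1r2 read 20.5 and 98.8 (WT) and 456 and 828 (Smad4-KO). The WT arrays were far from each other (log2 mean 5.49 ± 1.61 SD, n = 2), and both Smad4-KO arrays were above them (9.26 ± 0.61 SD, n = 2). Like Il1rn, it was in the test only through the Smad4-KO arrays. Its log2 difference of 3.77 ± 0.79 (95% interval 1.80 to 5.75) was nearly as large as that of Il1rn but did not pass (limma, adjusted p = 0.0572). With signals under 64 raised to 64 Il1r2 was at least 7.73-fold higher and passed, one of 4 alternatives of 15 under which it did (adjusted p from 0.00102 to 0.169). That fold does not allow for the spread of the WT arrays. Il1r1, the receptor that carries the signal, read 853 and 922 (WT) and 1817 and 1463 (Smad4-KO). Each genotype's arrays were close and the genotypes did not overlap, yet the log2 difference of 0.88 ± 0.31 (1.84-fold, 95% interval 0.11 to 1.64) did not pass (limma, adjusted p = 0.195). A second Il1r1 probe set read 3.01 and 5.06 (WT) and 0.48 and 0.65 (Smad4-KO), the opposite direction at signals far below 64. Averaging both Il1r1 probe sets turned the sign of the gene's difference to -0.96 (adjusted p = 0.241, where 16 alternatives spanned 0.142 to 0.544).

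Of the inflammasome genes, the sensor Nlrp3 had the smallest difference. Its signals were 97.4 and 122 (WT) against 144 and 199 (Smad4-KO), and its log2 difference was 0.63 ± 0.34 (1.55-fold, 95% interval -0.21 to 1.47, limma, adjusted p = 0.419). After quantile normalization it was 0.19 (adjusted p = 0.828, in 15 alternatives from 0.335 up). The interval includes a small decrease as well as a fold well above that value. Pycard, the gene of the adaptor ASC, read 607 and 413 (WT) and 1399 and 2322 (Smad4-KO) on its brightest probe set. The genotypes did not overlap, and the log2 difference of 1.85 ± 0.40 (3.60-fold, 95% interval 0.84 to 2.85) did not pass (limma, adjusted p = 0.0621). It passed under 4 of 16 alternatives, among them leaving out genes below the 50th percentile of signal (adjusted p from 0.0336 to 0.401 over all 16). The other Pycard probe sets overlapped between genotypes: one read 68.9 and 124 (WT) and 67.0 and 78.5 (Smad4-KO), the other 43.3 and 21.5 (WT) and 40.2 and 69.0 (Smad4-KO). With the mean of its probe sets, Pycard differed by only 0.76.

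Casp1, whose product cuts IL-1β and IL-18, read 336 and 226 (WT) and 519 and 596 (Smad4-KO). The groups did not overlap, and the log2 difference of 1.01 ± 0.34 (2.02-fold, 95% interval 0.16 to 1.87) did not pass under any of 16 alternatives (limma, adjusted p = 0.184, range 0.147 to 0.640). Casp4 read 367 and 320 (WT) and 815 and 1696 (Smad4-KO). The WT arrays were close (log2 mean 8.42 ± 0.14 SD, n = 2), whereas Smad4-KO replicate 2 stood well above Smad4-KO replicate 1 (10.2 ± 0.75 SD, n = 2). The log2 difference was 1.78 ± 0.43 (3.43-fold, 95% interval 0.69 to 2.87, limma, adjusted p = 0.0843), and it passed without Smad4-KO replicate 1 (2.31, adjusted p = 0.0368), with the replicate number as a block (1.78, adjusted p = 0.0384) and at a threshold of 0.10. Its adjusted p over 16 alternatives lay between 0.0368 and 0.330.

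The promoters of Il1b and Il1rn are shown because these genes had the largest differences, and that of Casp4 because its window holds the most matches to the motifs searched. Each is the 250 bases before a transcription start in RefSeq on GRCm38.p6, read 5′ to 3′ on the gene's strand, with matches to the motifs named below in capitals. The positions are chr2:129371140-129371389 on the minus strand for Il1b, chr2:24336610-24336859 on the plus strand for the first of 3 Il1rn windows, and chr9:5308599-5308848 on the plus strand for the first of 2 overlapping Casp4 windows.
Il1b: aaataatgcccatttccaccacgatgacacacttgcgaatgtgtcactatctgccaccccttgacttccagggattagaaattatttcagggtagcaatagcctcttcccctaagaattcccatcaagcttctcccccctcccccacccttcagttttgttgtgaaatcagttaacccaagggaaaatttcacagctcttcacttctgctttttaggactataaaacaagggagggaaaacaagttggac
Il1rn: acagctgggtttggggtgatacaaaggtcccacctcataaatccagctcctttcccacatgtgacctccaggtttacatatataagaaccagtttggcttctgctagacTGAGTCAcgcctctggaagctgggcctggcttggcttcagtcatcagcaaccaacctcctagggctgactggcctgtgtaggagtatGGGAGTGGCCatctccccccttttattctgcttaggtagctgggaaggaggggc
Casp4: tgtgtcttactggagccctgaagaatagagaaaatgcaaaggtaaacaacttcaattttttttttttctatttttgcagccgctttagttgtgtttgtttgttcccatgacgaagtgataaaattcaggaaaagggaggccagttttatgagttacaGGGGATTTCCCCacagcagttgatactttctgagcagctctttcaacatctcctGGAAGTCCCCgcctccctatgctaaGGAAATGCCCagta
Motifs were searched on both strands in 15 windows of the 10 genes and in all 32851 windows of the table. An NF-κB core (GGGNNNNNCC) was found in 7 of the 15 windows, against 45.8% of all windows. Casp4 held 5 matches to it, of which 3 share bases. The farthest begins 93 bases before the start as GGGGATTTCC. Il1rn held GGGAGTGGCC starting 54 bases before its first start, and an AP-1 motif (TGANTCA) starting 141 bases before it. The AP-1 motif was in 2 of 15 windows, those of Il1rn and Il1a, against 6.75% of all windows. A C/EBP core (TTGCNNAA) was in 2 of 15, those of Il1r1 and Pycard, against 9.56%, and a PU.1 core (GAGGAA) in 4 of 15, with 3 matches in Nlrp3, against 23.3%. An interferon response core (GAAANNGAAA) was in 0 of 15, against 2.98%. The Il1b window held no match to any of the 5 motifs. A match is a description of the sequence and not of binding, and windows of 1 gene are not independent.

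Differences were also taken between single arrays, because the labelling controls and Xist divided the arrays within each genotype. Between the 2 arrays with a high 3' to 5' ratio, WT replicate 1 and Smad4-KO replicate 2, the log2 difference of Il1b was 5.54, and between the 2 with a low ratio it was 3.37. For Il1rn these values were 4.51 and 3.10, for Il1r2 5.34 and 2.21, for Il18 1.98 and 1.79, and for Pycard 1.93 and 1.76. Casp4 gave 2.21 and 1.35, Casp1 0.83 and 1.20, Il1r1 0.78 and 0.98, and Nlrp3 1.03 and 0.23. On their brightest probe sets, all 9 genes tested had a positive difference in all 4 pairs of arrays, as did 25.9% of all genes tested. This direction is already fixed once the groups do not overlap. Il1a, not tested, was also positive in each pair, at signals below 64. Between the 2 arrays with high Xist, those numbered 1, and the 2 with low Xist, those numbered 2, the differences of Il1b were 4.91 and 3.99, those of Il1rn 3.28 and 4.33, and those of Il1r2 4.48 and 3.07. Il18 gave 1.58 and 2.19, Pycard 1.20 and 2.49, and Casp4 1.15 and 2.41. Casp1 gave 0.63 and 1.40, Il1r1 1.09 and 0.67, and Nlrp3 0.56 and 0.70. With a block for the Xist split, which is the replicate number, 6 of the 9 passed in limma: Il1b (adjusted p = 0.000402), Il1rn (0.000765), Il1r2 (0.00102), Il18 (0.0210), Pycard (0.0336) and Casp4 (0.0384). Over all 13645 genes, the block for the Xist split gave 1035 higher and 286 lower, against 672 and 189 without it. With a block for the labelling split, chosen after seeing the data, 0 passed in limma, as did 0 of all genes (2658 at an unadjusted p under 0.05). Of Il1b, Il1rn and Il18, which passed without a block, Il18 varied least over the 4 pairs, from 1.58 to 2.19. Il1b varied most of them, from 3.37 to 5.54.

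**Figure D3:**
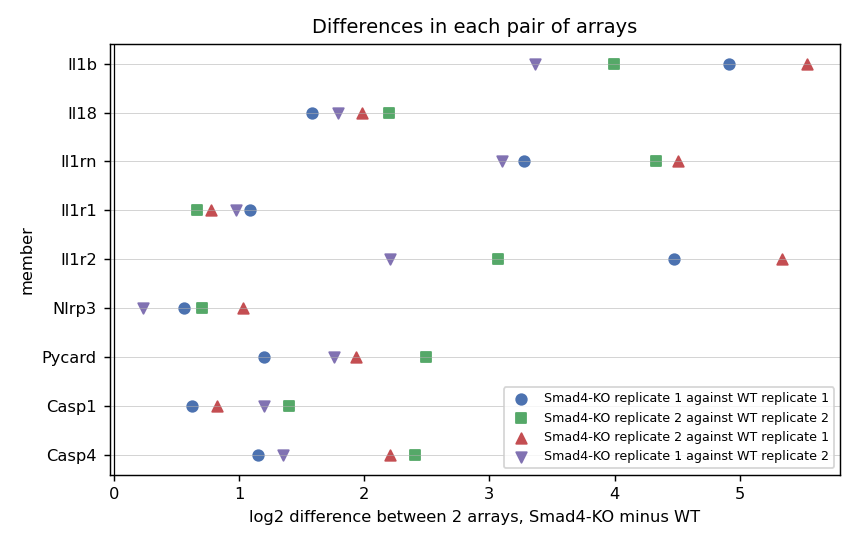
Log2 difference between single arrays (horizontal axis) for the 9 genes tested (vertical axis), 1 symbol for each of the 4 pairs of a Smad4-KO and a WT array. The points of Il18 lie close together, from 1.58 to 2.19, and those of Il1r2 spread from 2.21 to 5.34.

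Other genes of the pathway were read from lists of related ligands and receptors, of signalling, of further inflammasome genes and of genes induced by IL-1. Of 7 other IL-1 family ligands and receptors tested, 2 rose and 0 fell (limma, with 0 lower at an unadjusted p under 0.05). Of all genes, 4.92% rose and 1.39% fell. The median log2 difference of the 7 was 1.56. Of the 5 with a WT mean above the cut for low signal, 1 rose, against 518 of the 13064 such genes in the same fit. The other 2 entered the fit only through the Smad4-KO arrays, so counts and the median over the 7 are a description. Il33, the gene of an alarm cytokine released by damaged cells, read 1117 and 1004 (WT) and 3297 and 5357 (Smad4-KO), so that every Smad4-KO array was above every WT array. It rose 3.97-fold (1.99 ± 0.36, limma, adjusted p = 0.0393). Il18bp, the gene of a secreted protein that binds and neutralises IL-18, read 14.4 and 17.9 (WT) and 185 and 264 (Smad4-KO). Both WT values were very dim and below the cut, so that it entered the fit only through the Smad4-KO arrays. It rose by 3.78 ± 0.34 (limma, adjusted p = 0.0125), at least 3.45-fold when values below 64 are set to 64. The differences of the other 5 ran from 0.00 for the co-receptor Il1rap to 2.76 for Il18rap, a subunit of the IL-18 receptor, and did not pass.

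Of 19 genes of signalling below the receptor, 0 passed in either direction in limma. At an unadjusted p under 0.05, 4 were higher and 0 lower, and both Smad4-KO arrays lay above both WT arrays for 9, against 13.1%, 6.16% and 25.9% of all genes. Their median was 0.26. The lowest p-values were those of Rel, an NF-κB subunit (1.23 ± 0.31, adjusted p = 0.0944), and Irak3, an inhibitor of IL-1 receptor signalling (1.17 ± 0.31, adjusted p = 0.108). Rel read 45.0 and 40.0 (WT) and 87.4 and 113 (Smad4-KO), and Irak3 read 290 and 222 (WT) and 605 and 539 (Smad4-KO). Both separated the genotypes. The WT signals of Rel were below 64, and its mean there below the cut, so that only the Smad4-KO arrays brought it into the test. With values below 64 set to 64 its difference was 0.64, at least 1.55-fold (adjusted p = 0.306, in a range over all alternatives from 0.094 to 0.405). Irak3 turned to -0.064 with the mean of its probe sets (adjusted p = 0.970, the highest of 16 alternatives that began at 0.0770).

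Among 19 other inflammasome sensors, caspases and pore proteins, 6 rose and 0 fell (limma, with 0 lower at an unadjusted p under 0.05). The shares of all genes were 4.92% and 1.39%, and the median of the 19 was 1.14. Nlrc5, an activator of MHC class I genes, rose 6.95-fold (2.80 ± 0.39, limma, adjusted p = 0.0217), from 358 and 244 in WT to 1627 and 2591 in Smad4-KO. Panx1, a membrane channel that releases ATP, rose 5.94-fold (2.57 ± 0.43, limma, adjusted p = 0.0329), from 152 and 81.0 to 543 and 798. Naip5 and Naip2, sensors of bacterial flagellin and of a secretion system protein, rose 5.53-fold (2.47 ± 0.32, limma, adjusted p = 0.0193) and at least 5.98-fold (2.74 ± 0.45, limma, adjusted p = 0.0315). The Naip genes are close copies of each other, so how far their probe sets tell them apart is uncertain. The 13 that did not pass ran down to -0.47, and Casp8, Gsdmd and Gsdme were among them at 0.83, 1.38 and 1.14.

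Of 20 genes known to be induced by IL-1, 10 rose and 0 fell (limma, with 0 lower at an unadjusted p under 0.05). The shares of all genes were 4.92% and 1.39%, and the median of the 20 was 2.26. The WT mean was below the cut for low signal in 6 of the 20, so counts and the median over the 20 are a description. Of these 6, 5 were among the 10 that rose, Il6, Cxcl2 and Cxcl5 included. Of the 14 genes above that cut 5 rose, against 518 of the 13064 such genes in the same fit. Il6, a cytokine, read 15.8 and 49.9 (WT) and 634 and 1635 (Smad4-KO), at least 15.9-fold higher by the same bound (5.18 ± 0.71, limma, adjusted p = 0.0207). Cxcl2 and Cxcl5, chemokines of neutrophils, were at least 14.2-fold (4.93 ± 0.71, limma, adjusted p = 0.0225) and at least 8.59-fold higher (5.01 ± 0.97, limma, adjusted p = 0.0471). Saa3, an acute-phase protein, rose 28.0-fold (4.81 ± 0.65, limma, adjusted p = 0.0203), from 309 and 264 to 4138 and 15502. The 2 Smad4-KO arrays differed much in Saa3 and in Cxcl2 (436 and 1903), and in both Smad4-KO replicate 2 was the higher. These genes respond to other cytokines as well, and Tnf, itself an inducer, was below the filter at 11.3 and 27.0 (WT) and 89.9 and 135 (Smad4-KO). The calls of Il6, Cxcl2, Cxcl5, Saa3, Nlrc5, Naip2, Naip5, Panx1 and Il33 ended without WT replicate 1 and without WT replicate 2. That of Il18bp ended without WT replicate 2, as did every call of the series. Those of Naip2, Panx1, Il33 and Cxcl5 also ended without Smad4-KO replicate 2, and that of Cxcl5 without Smad4-KO replicate 1. Those of Il33 and Cxcl5 ended as well when the probe sets of every gene were averaged.

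**Figure D4:**
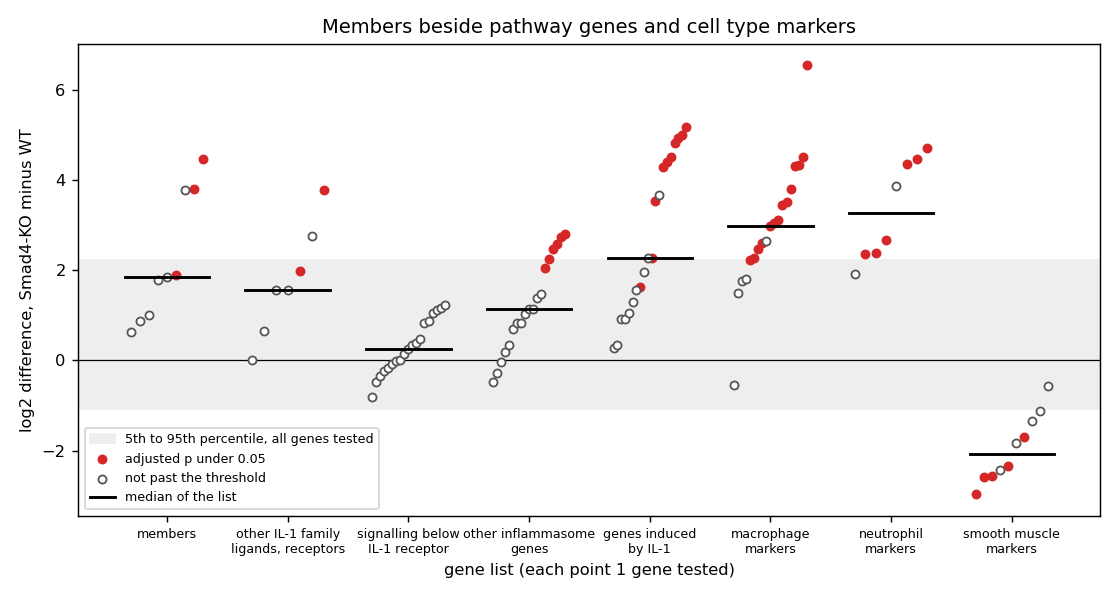
Log2 difference between Smad4-KO and WT (vertical axis) of each gene tested in 8 lists (horizontal axis), with red points past an adjusted p of 0.05 in limma, open points not past it and a black line at each list's median. The grey band runs from the 5th to the 95th percentile of all genes tested. Medians are a description, because some genes entered the fit only through the Smad4-KO arrays. They were 2 of the 9, 2 of the 7 other family genes and 1 of the 19 signalling genes. They also were 6 of the 20 IL-1-induced genes, 2 of the 19 macrophage markers and 2 of the 8 neutrophil markers. The medians are 1.85 for the 9 IL-1 and inflammasome genes, 0.26 for signalling genes, 2.26 for IL-1-induced genes, 2.97 for macrophage markers, 3.26 for neutrophil markers and -2.08 for smooth muscle markers.

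Markers of white blood cells moved in the same arrays, in which 4.92% of all genes rose and 1.39% fell (limma). Of 19 macrophage markers tested, 14 rose and 0 fell (limma, with 0 lower at an unadjusted p under 0.05), with a median of 2.97, and their summed signal was 12370 to 19518 in WT and 75587 to 110511 in Smad4-KO. Cd68, a lysosomal protein of macrophages, rose 10.9-fold (3.45 ± 0.33, limma, adjusted p = 0.0128), and Ptprc, the phosphatase CD45 on all white blood cells, 12.7-fold (3.66 ± 0.31, limma, adjusted p = 0.0125). Of 8 neutrophil markers tested, 6 rose and 0 fell (limma, with 0 lower at an unadjusted p under 0.05), and the summed signal of the 10 on the array was 635 to 1847 in WT and 15647 to 19575 in Smad4-KO. Of those tested, 2 macrophage and 2 neutrophil markers had a WT mean below the cut, 1 of each among the risers. Counts and medians over these 2 lists are therefore a description. The calls of Cd68 and Ptprc ended without WT replicate 2, and that of Ptprc also with the mean of its probe sets (3.14, adjusted p = 0.0868). No marker of either list was at 0 on an array, and none was below 64 on all 4. Of 10 smooth muscle markers 5 fell and 0 rose (limma, with 0 higher at an unadjusted p under 0.05), and their summed signal was 148558 to 177373 in WT and 65557 to 73391 in Smad4-KO. Of 6 lymphocyte markers tested, 2 rose and 0 fell (limma), and 4 more were below the filter on low signal. The 10 on the array summed to 465 to 841 in WT and 1793 to 3255 in Smad4-KO. Nerve cell markers rose too, 7 of 7 tested. Of the endothelial (8), fibroblast (8) and fat cell markers (4) tested, 0 passed in limma. At an unadjusted p under 0.05, 1 endothelial marker was higher and 1 fat cell marker lower, against 13.1% and 6.16% of all genes. The 4 fat cell markers summed to 25091 and 8017 (WT) and 27785 and 6549 (Smad4-KO), a wide spread within each genotype. In RNA of whole vessels, a change in the number of cells of a type and a change in RNA per cell cannot be told apart, and the part of these markers in the differences of Il1b, Il1rn, Il18 and the other genes was not tested.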

How the data were processed

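Aortic RNA was measured on 4 Affymetrix arrays, 2 WT and 2 Smad4-KO. Each deposited value is the intensity of a probe set, not logged. Affymetrix Expression Console and RMA were used, per the submitters' processing notes, but every array has the same mean (500.0) after trimming 2% at each end, the form MAS5 gives. Software versions, detection calls and the build: not given in the sources used here.

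Of 45101 probe sets, 64 are controls, 34945 have 1 gene symbol, 932 several and 9160 none. Only probe sets with 1 symbol were used. Of the 18193 genes, 18032 matched RefSeq by gene identifier, and 0 symbols needed updating. After a log2 transform, the probe set with the highest mean stood for its gene, and 13645 genes with a mean at or above the 25th percentile (5.64) were tested. The test was limma's (R 4.3.3, limma 3.58.1; lmFit, then eBayes, with genotype as the only term, two-sided), with Benjamini-Hochberg adjustment over all genes tested and a threshold of 0.05. The arrays of a genotype are pools labelled as biological replicates, so the spread behind each p-value is that of pools. Where an array is left out, its genotype has 1 array, which limma assumes to vary like the other group.

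The 10 members and all gene lists were chosen with earlier results of these data known. Named genes are every member, up to 4 genes past the threshold with the largest difference in each pathway list (where none passed, the 2 of lowest p), and Smad4, Ptprc and Cd68. Others named (Il1rap, Il18rap, Casp8, Gsdmd, Gsdme, Tnf, Acta2 and Myh11) were picked after their values were seen. A fold written "at least" has signals under 64 raised to 64 and does not allow for replicate spread. Alternatives were a replicate block, 3 normalizations, 2 filters, 2 treatments of probe sets, 2 limma settings, the floor of 64, a threshold of 0.10 and leaving out each array. The procedure was tested on simulated data. Promoter sequences and motif counts come from RefSeq on GRCm38.p6, searched with Python 3.11.15 and pandas 2.3.3; figures were drawn with matplotlib 3.10.9.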

Additional observations from a re-analysis of the deposited data

How the results depend on the processing

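The direction of the 9 genes tested was the same under every alternative that gave a value, apart from Il1r1, which turned to -0.96 when all probe sets of a gene were averaged. The same setting turned Irak3 to -0.064. Only the normalizations and this averaging could have turned a direction. Other alternatives left the difference as it was or could not change its sign, because the groups do not overlap. The main count of 3 genes higher became 6 with the replicate block, 6 at an adjusted p of 0.10, 5 with trend and robust variances, and 0 with no filter or with every probe set tested by itself. Leaving out 1 array gave 0 to 4. As lower, 0 of the genes were called under any alternative run. Over all genes, the 672 higher and 189 lower became 1035 and 286 with the replicate block, 1057 and 346 at 0.10, 427 and 91 with the mean of probe sets, 184 and 21 with every probe set, and 0 and 0 with no filter (limma, 2788 at an unadjusted p under 0.05, lowest adjusted p = 0.0725). Leaving out 1 array gave 0 to 632 higher and 0 to 176 lower, with 0 without WT replicate 2 (limma, 1791 at an unadjusted p under 0.05). The cause of these changes was not tested. With no filter more genes entered the adjustment, and unadjusted p-values rose too (Il1b from 0.000397 to 0.00212). Quantile normalization and median centring moved the median of all genes by -0.14 and -0.15 on the log2 scale, and all 9 genes stayed higher under both. Quantile normalization ended the calls of Il18 (adjusted p = 0.0508), Naip2 and Cxcl5, and median centring those of Il33 and Cxcl5. Same-numbered arrays deviated with a correlation of -0.01 across genes, although the numbers follow the Xist split. A block for the crossed numbers, which match on the labelling controls and were chosen after seeing the data, gave 0 of the genes and 0 and 0 over all (limma, 2658 at an unadjusted p under 0.05).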
